A study of Mus musculus with 8 samples.

Results

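The bait end lay in Dach1, on mouse chromosome 14. In the libraries made with a targeting sgRNA, most junctions within 10 kb of it lay ahead of it, in the same orientation. Far fewer lay behind it or in the opposite orientation. The junctions described here are the plus-strand junctions that lay 6 to 10000 bp from the bait end of site 1, chromosome 14 position 98168726 (mm10). They were selected from the on-cut lists of the 4 site 1 libraries as the distinct 5′ ends of aligned plus-strand reads, with repeated lines at one position counted once. They numbered 151 in the 92Q library, 1577 in the 10Q library, 1339 in the sgRNA-only library and 11 in the non-targeting library. Together these were 3078 of the 10359 distinct junctions at site 1 and of the 11310 in the 8 libraries of the series.

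Neuro-2a, a mouse neuroblastoma line, was transfected transiently with plasmids. The 92Q library came from cells given ataxin-7 with an expanded polyglutamine tract, spCas9 and the site 1 sgRNA, and the 10Q library from cells given ataxin-7 with a normal tract, spCas9 and the same sgRNA. The sgRNA-only library had spCas9 and the site 1 sgRNA without ataxin-7, and the non-targeting library had spCas9 and an sgRNA with no target, read with the same bait primer. Cells of all 4 groups were collected at 48 h, each library pooled 3 transfections, sorting kept GFP-positive cells, and DNA was sheared to 750 bp. The series' design text mentions targeting sgRNA alone for site 2 only, so the site 1 sgRNA-only group rests on its sample label. Each group was 1 library, so no spread between replicates could be measured and every test below compares libraries, not conditions.

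In this assay a biotinylated primer beside the cut is extended across it, and the read that follows shows what the broken end was joined to. Broken ends are mostly rejoined by end joining, which may first lose sequence to nucleases (end resection), so that a rejoined chromosome carries a deletion. A junction ahead of the bait end in the primer's own orientation is what such a deletion leaves. Its distance from the bait end would be the length lost on the far side if the bait end lay at the cut. A junction behind the bait end in that orientation repeats sequence, and one on the other strand is inverted relative to the bait. Ataxin-7 is a subunit of the SAGA chromatin-modifying complex and is mutated by polyglutamine expansion in spinocerebellar ataxia type 7.

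The designed sequences that set the break and the direction of reading are shown with a genomic stretch in which junctions were dense. Positions inside that stretch can be placed in it, while the guide and primer were not placed on the genome. The guide has its 10 bases next to the PAM in capitals, the part on which Cas9 recognition depends most. The genomic stretch is the plus strand at chr14:98169766-98170065 (GRCm38.p6, the same build as mm10), from RefSeq promoter tables. It holds the 300 bases just outside the annotated start of Dach1, and capitals mark the 23 bases at which the 92Q, 10Q and sgRNA-only libraries all held a junction.
Site 1 guide: ggtagacatcAGCGCTGTTG
Site 1 bait primer: actaaaaagagcgcccctctttc
Dach1 upstream stretch: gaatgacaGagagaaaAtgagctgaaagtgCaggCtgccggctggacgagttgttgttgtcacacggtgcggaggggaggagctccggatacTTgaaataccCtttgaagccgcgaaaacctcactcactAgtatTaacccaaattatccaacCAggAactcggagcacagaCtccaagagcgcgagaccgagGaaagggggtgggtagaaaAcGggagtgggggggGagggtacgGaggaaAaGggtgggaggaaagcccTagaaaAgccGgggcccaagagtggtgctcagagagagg

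The whole libraries held 963 reads (92Q), 13152 reads (10Q), 8812 reads (sgRNA only) and 625 reads (non-targeting), of which the plus-strand junctions took 189, 6390, 4746 and 12. Reads at the bait end itself were plus-strand in every case, 17 of 17, 413 of 413, 190 of 190 and 378 of 378, so the primer reads toward higher coordinates, and "downstream" below means higher coordinates. All read names came from 1 sequencing run. A single read name occurred in 2 libraries, 92Q and 10Q, at the bait end and outside the junctions described. The deposited lists give no molecular identifiers and reads may be PCR copies, so the intervals below cover counting error only.

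These junctions made up a smaller part of the 92Q library than of the other targeted libraries. Plus-strand junctions took 19.6% of reads in the 92Q library, 48.6% in the 10Q library, 53.9% in the sgRNA-only library and 1.92% in the non-targeting library. On-cut reads as a whole were 268 of 963 (92Q), 8407 of 13152 (10Q), 5964 of 8812 (sgRNA only) and 409 of 625 (non-targeting). Minus-strand reads of the same window were 35, 812, 494 and 0. The whole on-cut list was thus a smaller part of the 92Q library than of the other targeted libraries. The count of distinct junctions depends on how many reads were drawn, so each library was also thinned to 963 reads, the size of the 92Q library, by an exact formula for drawing without replacement. At that depth 151 junctions were held by the 92Q library, against an expected 343.6 ± 12.0 in the 10Q library and 365.9 ± 11.8 in the sgRNA-only library (± is the SD of the drawing, not of replicates). The 92Q to 10Q ratio was thus 0.439 at equal reads (95% interval 0.360 to 0.533), against 0.0958 (0.0805 to 0.113) with all reads. The 92Q to sgRNA-only ratio was 0.413 (0.339 to 0.500) at equal reads and 0.113 (0.0947 to 0.134) with all reads. The intervals of ratios at equal reads take rounded expected counts as observed counts, so they are only a rough guide. At equal plus-strand junction reads, 189 per library, the 10Q library would hold 161.7 junctions and the sgRNA-only library 160.3, against 151. That setting was chosen after seeing the data.

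The 10Q and sgRNA-only libraries differed less. With all reads the 10Q library held 1.18 times as many junctions (1.09 to 1.27). At 963 reads it held an expected 0.939 times as many (0.809 to 1.09). That interval holds equality but takes expected counts as observed counts. Drawn down to the 8812 reads of the sgRNA-only library, the 10Q library would hold 1345.7 junctions against 1339. At 625 reads the sgRNA-only library would hold 260.5 ± 10.3 (SD of the drawing), against 11 in the non-targeting library.

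**Figure D1:**
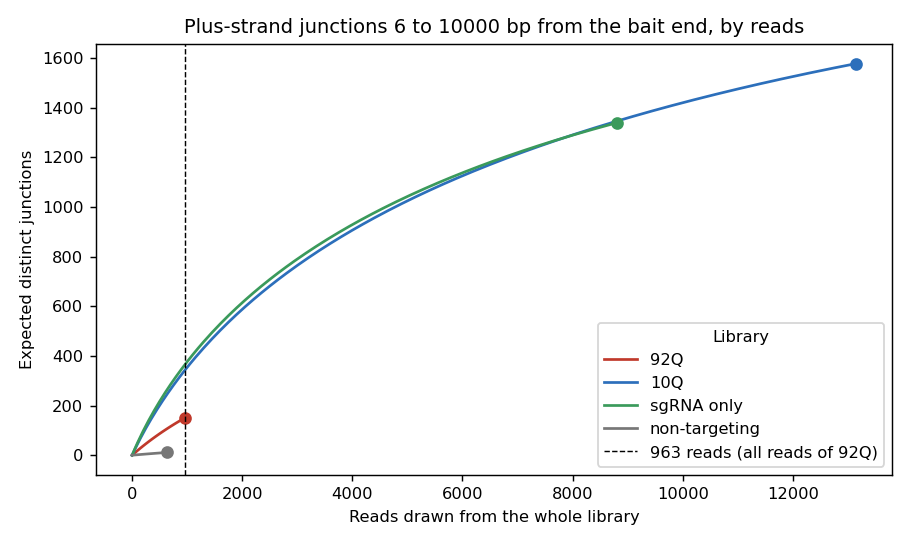
Expected number of distinct plus-strand junctions 6 to 10000 bp from the bait end (vertical axis) against the reads drawn from the whole library (horizontal axis), 1 line per library, with a dot at its full size and a dashed line at 963 reads. The 92Q line ends at 151 junctions, below the other targeted libraries at the same number of reads, while the 10Q and sgRNA-only lines run close together and reach 1577 and 1339.

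Nearly all junctions of this kind lay downstream. They were 146 of 151 in the 92Q library (96.7%, Clopper-Pearson interval 92.4 to 98.9), 1523 of 1577 in the 10Q library (96.6%, 95.6 to 97.4), 1309 of 1339 in the sgRNA-only library (97.8%, 96.8 to 98.5) and 11 of 11 in the non-targeting library. Differences between the targeted libraries were small: 0.113 percentage points between 92Q and 10Q, -1.07 between 92Q and sgRNA only, and -1.18 between 10Q and sgRNA only. None passed the test (two-sided Fisher's exact test, adjusted p = 1, 0.588 and 0.134, Benjamini-Hochberg over the 9 share tests). The 0 upstream junctions of 11 in the non-targeting library allow a share of up to 27.3% by a limit of 3 counts (28.5% by Clopper-Pearson).

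The few upstream junctions were spread thinly over the window. In the 92Q library the 5 of them lay 231, 325, 1332, 2695 and 6219 bp behind the bait end, positions listed after their values were seen and held by no other library. Their best mapping quality was 0, 0, 42, 42 and 3 in that order, with 1, 1, 2, 1 and 1 reads. The 10Q and sgRNA-only libraries likewise had few upstream positions in common. In the 10Q library 54 ran from 126 to 8970 bp, with a median of 1860 bp, and in the sgRNA-only library 30 ran from 114 to 8836 bp, with a median of 1765.5 bp. They were read 1.20, 1.74 and 1.87 times each in the 92Q, 10Q and sgRNA-only libraries, against 1.25, 4.13 and 3.58 times for downstream junctions. Upstream junctions were thus fewer and, in the 10Q and sgRNA-only libraries, less often repeated.

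Downstream distances appeared shorter in the 92Q library with all reads, and that difference from the 10Q library was gone at equal reads. The guide was not placed on the genome, so distances from the bait end are not measured deletion lengths. The median distance was 1045 bp in the 92Q library, 1452 bp in the 10Q library, 1290 bp in the sgRNA-only library and 1067 bp in the non-targeting library. Junctions within 1 kb made up 72 of 146 (49.3%, 41.0 to 57.7) in the 92Q library, 525 of 1523 (34.5%, 32.1 to 36.9) in the 10Q library and 434 of 1309 (33.2%, 30.6 to 35.8) in the sgRNA-only library. The 92Q share was 14.8 points above 10Q and 16.2 points above sgRNA only (adjusted p = 0.00248 and 0.00142, Fisher's exact test). A gap of 1.32 points separated the 10Q and sgRNA-only libraries (adjusted p = 0.609, same exact test).

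At 963 reads the share within 1 kb was 49.3% in the 92Q library, 49.4% in the 10Q library and 42.3% in the sgRNA-only library. The 92Q minus 10Q difference was then -0.0732 points (Fisher's exact test on expected counts, adjusted p = 1), and the 92Q minus sgRNA-only difference was 7.05 points and no longer passed (Fisher's exact test on expected counts, adjusted p = 0.312). The latter test held an expected 360.5 sgRNA-only junctions, against 1309 with all reads, so it had less power. It does not show that the 7.05-point difference was absent. The median distances at 963 reads were 1045 bp (92Q), 1007 bp (10Q) and 1111 bp (sgRNA only). Counted as reads, the share within 1 kb was 54.6%, 56.7% and 47.7% in these libraries. The longer distances of the 10Q library with all reads were thus not seen at the depth of the 92Q library.

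Positions at 351 to 500 bp were densely filled in the deeper libraries. Between 451 and 500 bp, 13 of 50 positions held a junction in the 92Q library, 48 in the 10Q library and 47 in the sgRNA-only library. At 351 to 500 bp, 19.3% of positions were filled in the 92Q library, against 93.3% in the 10Q library and 78% in the sgRNA-only library. Whether this filling changed the shares of the distance classes was not tested. At 5001 to 10000 bp 0.080% of positions were filled in the 92Q library, 3.24% in the 10Q library and 2.50% in the sgRNA-only library. In the 10Q library 62.1% of positions were filled at 6 to 100 bp, 3.20% at 101 to 350 bp and 63.6% at 501 to 1000 bp, so only the class at 351 to 500 bp came close to 1 junction per base.

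**Figure D2:**
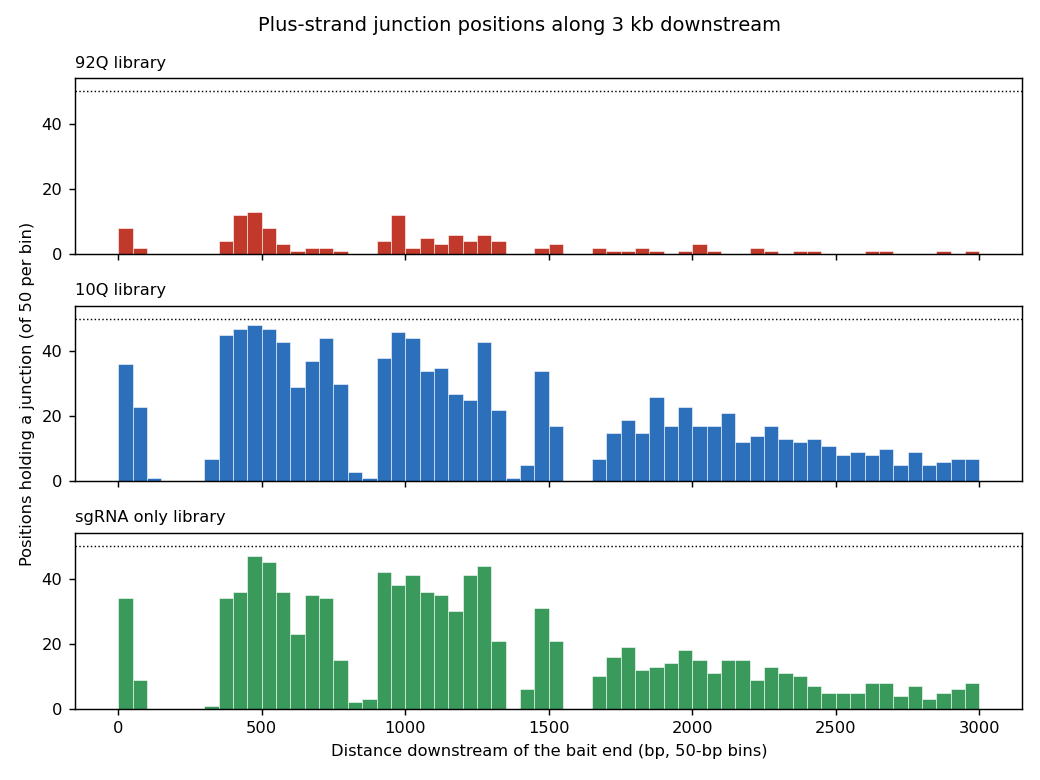
Number of positions that held a plus-strand junction in each 50-bp bin of the 3 kb downstream of the bait end, in 1 panel per targeted library, with a dotted line at the 50 positions a bin can hold. At 451 to 500 bp, 13 positions are filled with 92Q, 48 with 10Q and 47 with sgRNA only, and the same stretches are empty in all of them.

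The profile itself had a similar outline in the 3 targeted libraries. Of the downstream junctions, 6 to 100 bp held 10 (6.85%, 3.33 to 12.2) in the 92Q library, 59 (3.87%, 2.96 to 4.97) in the 10Q library and 43 (3.28%, 2.39 to 4.40) in the sgRNA-only library. The richest stretch per base was 351 to 500 bp, with 29, 140 and 117 junctions and with 24.0%, 27.8% and 18.6% of the downstream reads in the 92Q, 10Q and sgRNA-only libraries. At 501 to 1000 bp there were 33, 318 and 273 junctions, and at 1001 to 1500 bp 32, 270 and 285. Beyond 2 kb the counts thinned, to 4, 162 and 125 junctions at 5001 to 10000 bp.

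At equal reads the largest gap between the 10Q and sgRNA-only libraries in these classes stood at 1001 to 1500 bp and 351 to 500 bp. The expected shares at 351 to 500 bp were 19.9% (92Q), 19.2% (10Q) and 13.7% (sgRNA only), and at 1001 to 1500 bp they were 21.9%, 20.8% and 26.8%. At 6 to 100 bp they were 6.85%, 4.12% and 3.67%, and at 5001 to 10000 bp 2.74%, 5.41% and 5.89%. The 92Q values in these end classes rest on 10 and 4 junctions. These classes were drawn after the profile had been seen and were not tested.

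**Figure D3:**
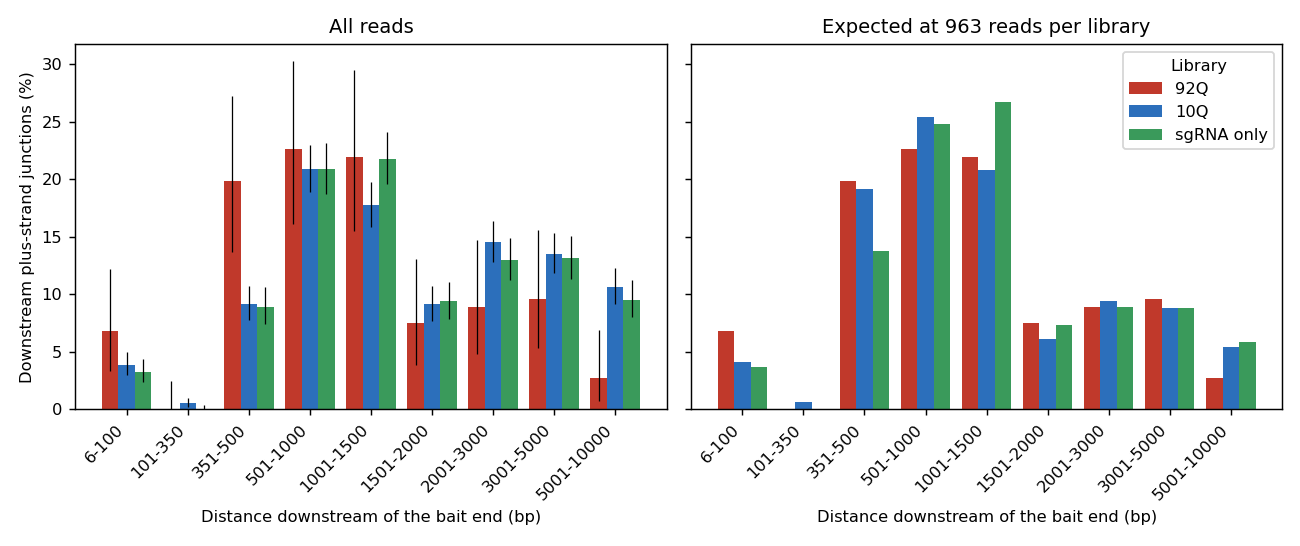
Share of downstream plus-strand junctions (vertical axis, percent) in 9 distance classes (horizontal axis, bp) in the 92Q, 10Q and sgRNA-only libraries, with all reads and Clopper-Pearson 95% intervals on the left, and the expectation at 963 reads per library on the right. The 92Q bar at 351 to 500 bp stands above the others with all reads (19.9% against 9.19% and 8.94%), and at equal reads the 10Q bar stands at 19.2% beside it.

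Within 3000 bp downstream, 5 stretches of 30 bp or more lay between junctions and held none in any library. The longest of them ran from 113 to 338 bp, 226 positions, followed by 1543 to 1676 bp (134 positions), 810 to 894 bp (85), 1326 to 1384 bp (59) and 1386 to 1440 bp (55). On-cut reads were aligned over most of these bases, and the longest stretch held 42 minus-strand junction positions, against 14, 1, 9 and 1 in those starting at 810, 1326, 1386 and 1543 bp. Reads on either strand left uncovered 93 bases of the longest stretch, from 246 to 338 bp, 1 base of the stretch starting at 1543 bp and 0 bases of the other stretches. No minus-strand junction started in the 140 bp after those 93 bases. The 92Q library held 0 of its 146 downstream junctions at 101 to 350 bp, which allows a share of up to 2.05% by a limit of 3 counts (2.49% by Clopper-Pearson), against 8 in the 10Q library and 1 in the sgRNA-only library. Whether reads starting in the 93 uncovered bases could be aligned was not tested.

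The best mapping quality at a junction differed between the libraries, while the mapping quality of single reads hardly did. A read of mapping quality 30 or more was present at 93 of 151 junctions in the 92Q library (61.6%), 1165 of 1577 in the 10Q library (73.9%) and 1034 of 1339 in the sgRNA-only library (77.2%). At 28 (18.5%), 173 (11.0%) and 119 (8.89%) junctions the best mapping quality was 0. Of the junction reads themselves, 54.5% (92Q), 54.9% (10Q) and 55.2% (sgRNA only) had a mapping quality of 30 or more. Adding reads to a junction can leave its best value equal or raise it. Whether reads per junction made the difference between the libraries was not tested. With well-mapped reads alone the share within 1 kb was 53.8% in the 92Q library, 35.2% in the 10Q library and 34.1% in the sgRNA-only library, the same order as with all reads. These shares were not thinned to equal reads, so they carry the same dependence on depth.

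The window crosses the annotated start of Dach1, a transcription factor gene on the minus strand, so downstream junctions run out of the gene through its start. The gene body (97786846 to 98169765) ends 1039 bp beyond the bait end, and Gm33583, a long noncoding RNA gene (98169904 to 98188620), begins at 1178 bp. The table of genes gives bodies without exons or UTRs. Junctions inside the Dach1 body were 77 of 151 in the 92Q library (51.0%, 42.7 to 59.2), 614 of 1577 in the 10Q library (38.9%, 36.5 to 41.4), 496 of 1339 in the sgRNA-only library (37.0%, 34.4 to 39.7) and 5 of 11 in the non-targeting library. Gm33583 held 62, 870, 744 and 5, and 12, 93, 99 and 1 lay in neither gene. These shares restate the distances and carry the same dependence on depth: of reads, 56.1% (92Q), 60.8% (10Q) and 51.9% (sgRNA only) started in Dach1.

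In the 300 bases printed above, 1040 to 1339 bp from the bait end, junctions were found at 30 positions in the 92Q library, 195 in the 10Q library and 216 in the sgRNA-only library, and at 3 in the non-targeting library. In the 10Q and sgRNA-only libraries 65% and 72% of these bases thus carried a junction, so junctions were not limited to a few sites. The joined base was G at 30% (92Q), 41.5% (10Q) and 42.1% (sgRNA only) of positions, against 36.3% G in the stretch. C was the joined base at 23.3%, 15.4% and 18.1%, against 19.3% of the stretch. These are descriptions of 1 stretch, with no test.

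Some positions were read far more often than their neighbours, and the same ones stood out in more than 1 library. Position 98169085, 359 bp downstream, had 2 reads in the 92Q library, 145 in the 10Q library and 34 in the sgRNA-only library, and was the most read position of the 10Q library. Position 98170033, 1307 bp downstream, had 2, 39 and 84 reads and was the most read position of the sgRNA-only library. It lies in the printed stretch at the capital A of the run aaaAgcc. Position 98169198, 472 bp downstream, had 3, 66 and 59 reads and stood among the 5 most read positions of both deeper libraries.

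A tight group of well-read positions lay close by, between 444 and 455 bp. At 452 bp there were 2 reads in the 92Q library, 60 in the 10Q library and 60 in the sgRNA-only library. At 455 bp there were 3, 53 and 64 reads, at 451 bp 2, 59 and 31, and at 444 bp 0, 58 and 29. These reads formed a peak rather than a single site. The most read position of the 92Q library lay 15 bp from the bait end, with 4 reads, against 25 in the 10Q library and 13 in the sgRNA-only library. It made up 21.2 per 1000 plus-strand junction reads with 92Q, 3.91 with 10Q and 2.74 with sgRNA only, a contrast that rests on 4 reads.

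Reads per junction followed depth. They averaged 1.25 in the 92Q library, 4.05 in the 10Q library, 3.54 in the sgRNA-only library and 1.09 in the non-targeting library. Junctions with 1 read were 122 of 151 in the 92Q library (80.8%, 73.6 to 86.7), 566 of 1577 in the 10Q library (35.9%, 33.5 to 38.3) and 518 of 1339 in the sgRNA-only library (38.7%, 36.1 to 41.4). At 963 reads the expected share was 78.3% in the 10Q library and 76.0% in the sgRNA-only library, both inside the 92Q interval, and reads per junction were 1.36 and 1.42. Plus-strand junction reads were still unequal at that depth, at 189 (92Q), an expected 467.9 (10Q) and 518.7 (sgRNA only). At equal plus-strand junction reads, 189 per library, the expected share was 87.6% (10Q) and 86.9% (sgRNA only), both above the 92Q interval. That setting was chosen after seeing the data. The excess of junctions read once in the 92Q library with all reads was thus not seen at equal junction reads.

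The deeper libraries held a long tail of repeated positions. The most reads at 1 position were 4 in the 92Q library, 145 in the 10Q library, 84 in the sgRNA-only library and 2 in the non-targeting library. Positions with 10 or more reads numbered 0, 141, 83 and 0, and they carried 40.9% of junction reads in the 10Q library and 32.8% in the sgRNA-only library. In the 10Q and sgRNA-only libraries repeats were densest where positions were most filled: at 351 to 500 bp a junction had 1.52 reads in the 92Q library, 12.5 in the 10Q library and 7.44 in the sgRNA-only library, and at 5001 to 10000 bp 1.00, 1.61 and 1.66. Whether repeated reads at a position were separate joinings or copies of 1 molecule was not tested.

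**Figure D4:**
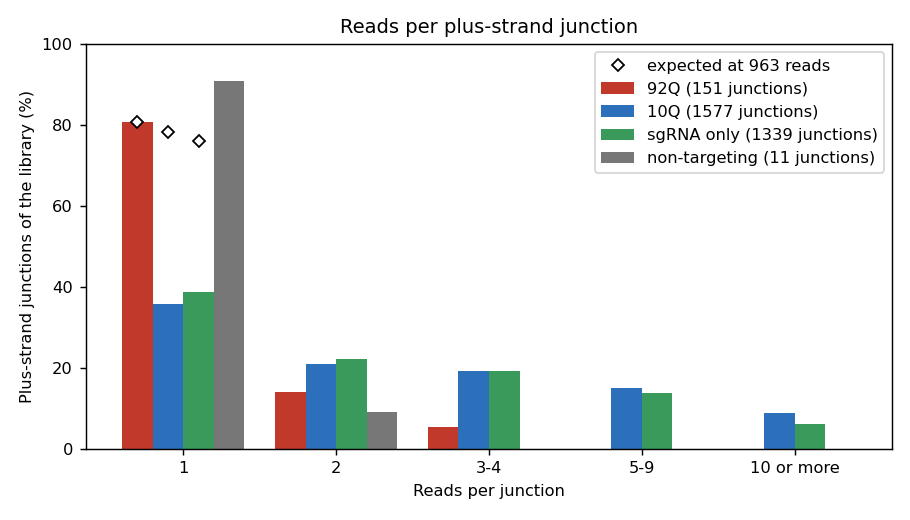
Share of plus-strand junctions (vertical axis, percent) by reads per junction (horizontal axis) in the 92Q, 10Q, sgRNA-only and non-targeting libraries, with open diamonds for the share with 1 read expected at 963 reads. With all reads 80.8% of 92Q junctions and 35.9% of 10Q junctions had 1 read, while at 963 reads the 10Q value is 78.3%.

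Junctions in different libraries often shared the exact base, and many bases in the near stretches held a junction. At 351 to 500 bp, 93.3% of positions were filled in the 10Q library and 78% in the sgRNA-only library. These values were 63.6% and 54.6% at 501 to 1000 bp, and 54% and 57% at 1001 to 1500 bp. How many shared positions this filling alone would give was not tested. Of the 151 positions in the 92Q library 110 were also held by the 10Q library (72.8% of the 92Q and 6.98% of the 10Q positions) and 113 by the sgRNA-only library (74.8% and 8.44%). The 10Q and sgRNA-only libraries shared 791 positions (50.2% of the 10Q and 59.1% of the sgRNA-only positions). All 3 targeted libraries held 101 positions, from 15 to 5216 bp, all of them downstream and 67 of them within 1 kb. Of the 2154 positions seen in any library, 1339 occurred in 1 library, 707 in 2, 107 in 3 and 1 in all 4.

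This overlap also moved with depth. At 963 reads each, the 92Q and 10Q libraries would share 48.4 positions on average (32.1% of the 92Q and 14.1% of the 10Q positions), and the 92Q and sgRNA-only libraries 51.2 (33.9% and 14.0%). Positions shared with the 92Q library were those read more often elsewhere: among the 791 positions common to the 10Q and sgRNA-only libraries, the 101 also held by the 92Q library had a median of 7 and 5 reads, and the other 690 a median of 3 and 2. Over the 791 positions the reads per position of the 10Q and sgRNA-only libraries had a Spearman rho of 0.451, and over the 2125 positions held by either of them, with 0 reads where one lacked the position, rho was 0.107. This is a description across positions that share the sequence, the run and the mapping. The 29 positions of the 92Q library that neither other targeted library held had 1 read in 28 cases, and 23 of them lay within 5 bp of a 10Q or sgRNA-only position. Within their own library, 85.2% of 10Q and 86.4% of sgRNA-only junctions also had another junction within 5 bp.

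**Figure D5:**
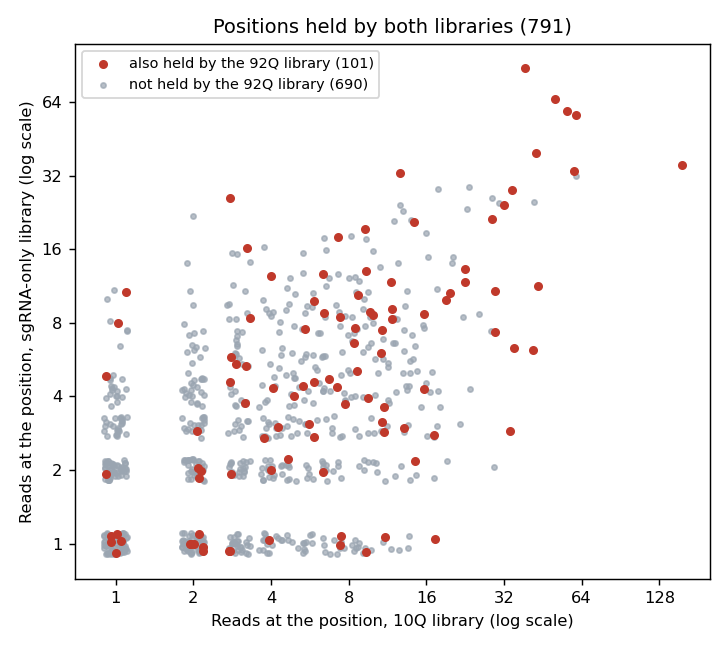
Reads at each of the 791 positions held by both the 10Q library (horizontal axis, log scale) and the sgRNA-only library (vertical axis, log scale), with positions also held by the 92Q library in red and points spread slightly so that ties can be seen. The 101 red points include the most read positions of both libraries, with medians of 7 and 5 reads against 3 and 2 for the 690 grey points.

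The non-targeting library, whose sgRNA had no target, is given for comparison with these values. How its 11 junctions arose was not tested. Its 11 junctions lay from 442 to 7721 bp downstream, and 10 of them had 1 read. All 11 positions were also held by the sgRNA-only library, 8 by the 10Q library and 1 by the 92Q library. At 625 reads per library the sgRNA-only library would share 2.46 of them on average. In the sgRNA-only library these positions had a median of 2 reads, the same as all its positions.

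Set against the minus-strand junctions of the same window, the plus strand held most of the joining in every library. Plus-strand junctions were 151 of 185 in the 92Q library (81.6%, 75.3 to 86.9), 1577 of 2028 in the 10Q library (77.8%, 75.9 to 79.6), 1339 of 1660 in the sgRNA-only library (80.7%, 78.7 to 82.5) and 11 of 11 in the non-targeting library. The differences of 3.86 points between 92Q and 10Q, 0.959 between 92Q and sgRNA only and -2.90 between 10Q and sgRNA only did not pass (adjusted p = 0.477, 0.95 and 0.103, Fisher's exact test). At 963 reads the shares were 81.6%, 86.1% and 87.8%, so the 92Q differences turned to -4.49 and -6.20 points. Neither passed (Fisher's exact test on expected counts, adjusted p = 0.312 and 0.261), with fewer 10Q and sgRNA-only junctions than with all reads. The strands differed in arrangement: downstream junctions were 146 of 151 on the plus strand and 11 of 34 on the minus strand in the 92Q library, 1523 of 1577 and 117 of 451 in the 10Q library, and 1309 of 1339 and 89 of 321 in the sgRNA-only library. Plus-strand junctions were also repeated more, at 1.25, 4.05 and 3.54 reads each against 1.03, 1.80 and 1.54 on the minus strand.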

How the data were processed

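Genome-wide translocation sequencing was done on Neuro-2a cells, 1 library per group. The authors deposited on-cut and off-cut lists with 1 aligned read per line. The only measured value in the deposited lists is a score, the mapping quality of each read (0 to 42), made by the authors when they aligned the reads, with Bowtie2 per the submitters' processing notes. Those notes list mm10 and mm9 with no role for either. How reads were filtered, duplicates treated and on-cut reads defined is not stated in the labels. Gene bodies and promoter sequence came from RefSeq tables of GRCm38.p6, and no genome sequence was used, so the guide was not placed on the genome.

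A junction was the 5′ end and strand of a read, repeated lines collapsed, and the bait end was the position where most non-targeting on-cut reads began (378 of 409), which is the one the selection rule names. Expected values at equal reads used the exact hypergeometric formula, with shares as ratios of expectations and medians weighted by the chance of inclusion. That formula and the tests were tested on simulated data. Shares have Clopper-Pearson 95% intervals, and ratios of counts have exact conditional binomial intervals. For ratios at equal reads, expected counts were rounded and taken as observed counts, so these intervals do not measure the spread of the drawing. Shares were compared by Fisher's exact test (two-sided), adjusted over the 9 tests by Benjamini-Hochberg, and expected counts were rounded for them. At equal reads these tests hold fewer junctions than with all reads, so a difference that did not pass is not shown to be absent. Computation used Python 3.11.15, numpy 2.4.6, pandas 2.3.3 and scipy 1.17.1. Alternatives were counting reads, 2 or more reads, mapping quality 30, merging within 5 bp, other limits, leaving out non-targeting positions, and equal reads. Single positions are named from the 5 most read of a library or those held by all 3 targeted libraries, except the upstream 92Q positions and the range of the non-targeting ones. The junctions, shares and classes were chosen with earlier results of these data known.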

Additional observations from a re-analysis of the deposited data

How the results depend on the processing

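Differences below are in percentage points and ratios are of counts; tests are Fisher's exact tests with adjusted p. Thinned to equal reads, the share within 1 kb differed by -0.0732 (92Q minus 10Q) and 7.05 (92Q minus sgRNA only), the downstream share by -1.43 (92Q minus 10Q), and the plus-strand share by -4.49 (92Q minus 10Q) and -6.20 (92Q minus sgRNA only). None of these differences passed the exact test on expected counts, which holds fewer junctions and has less power. The count ratios became 0.439 (92Q over 10Q), 0.413 (92Q over sgRNA only) and 0.939 (10Q over sgRNA only), and junctions with 1 read 78.3% (10Q) and 76.0% (sgRNA only). Exact repeats with each pair at the reads of its smaller library, chosen after seeing the data, were 32.1% (92Q in 10Q) and 33.9% (92Q in sgRNA only) at 963 reads, 53.0% (10Q in sgRNA only) at 8812, and 22.3% (non-targeting in sgRNA only) and 19.7% (non-targeting in 10Q) at 625, so pairs are not at one depth. At equal junction reads, also chosen after seeing the data, the share within 1 kb differed by -3.39 (92Q minus 10Q) and 4.34 (92Q minus sgRNA only); junctions with 1 read were 87.6% (10Q) and 86.9% (sgRNA only). Counted as reads, the downstream share differed by -1.70 (92Q minus 10Q). By the same exact test, the share within 1 kb differed by -2.04 (92Q minus 10Q), 6.99 (92Q minus sgRNA only, adjusted p = 0.0902) and 9.03 (10Q minus sgRNA only, adjusted p = 6.17e-20), the last with reads that are not independent molecules. The plus-strand share differed by -4.35, -6.20 and -1.85 in the same order of pairs, and by the exact test both differences from sgRNA only then passed (adjusted p = 0.0112 and 0.00407); the ratios were 0.0296, 0.0398 and 1.35. With 2 or more reads per junction, the downstream share differed by -1.77 (92Q minus 10Q), the plus-strand share by -4.42 (10Q minus sgRNA only, which then passed the exact test, adjusted p = 0.00966), the share within 1 kb by 29.7 (92Q minus 10Q) and 30.4 (92Q minus sgRNA only), and the ratios were 0.0287 (92Q over 10Q) and 0.0353 (92Q over sgRNA only). At mapping quality 30 or more, the plus-strand share differed by -3.17 (92Q minus sgRNA only), the ratios were 0.0798 (92Q over 10Q) and 0.0899 (92Q over sgRNA only), junctions with 1 read were 89.2% (92Q), 42.4% (10Q), 49.5% (sgRNA only) and 100% (non-targeting), and 45.8% of 10Q positions recurred in sgRNA only. Matching within 5 bp gave repeats of 94.0% (92Q in 10Q), 94.0% (92Q in sgRNA only), 84.0% (10Q in sgRNA only), 100% (non-targeting in 10Q) and 63.6% (non-targeting in 92Q). Of the 10Q and sgRNA-only junctions, 85.2% and 86.4% had a neighbour within 5 bp in their own library. Merging positions within 5 bp joins the dense near stretches by construction. It gave downstream differences of 8.15 (92Q minus 10Q) and 4.39 (92Q minus sgRNA only), and 36.3, 35.8 and -0.566 within 1 kb (92Q minus 10Q, 92Q minus sgRNA only, 10Q minus sgRNA only). Plus-strand differences were 22.3 (92Q minus 10Q) and 19.9 (92Q minus sgRNA only). These and the downstream 92Q minus 10Q difference then passed the exact test (adjusted p = 4.04e-06, 6.59e-05 and 0.0379). Merging also gave ratios of 0.274 (92Q over 10Q) and 0.324 (92Q over sgRNA only), and junctions with 1 read of 60% (92Q), 40.5% (10Q) and 35.6% (sgRNA only). An outer limit of 5000 bp gave 32.5% of 10Q junctions with 1 read, a near limit of 2000 bp gave a difference of -3.00 (10Q minus sgRNA only), and leaving out positions near non-targeting ones gave a downstream difference of -0.0351 (92Q minus 10Q). The causes of the changes at other settings were not tested. No paired analysis was possible because each group was 1 library. The 963 reads of the 92Q library limit every comparison with it.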
